A study of Homo sapiens with 6 samples.

Results

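The human APOBEC family is a set of cytidine deaminases, enzymes that turn cytosine into uracil in single-stranded DNA or RNA. The genes described here are the 7 APOBEC3 genes, APOBEC3A, APOBEC3B, APOBEC3C, APOBEC3D, APOBEC3F, APOBEC3G and APOBEC3H, together with APOBEC1. They were chosen by gene symbol, and 8 of the 35856 genes in the deposited table are members. The transcriptome was measured in HCCLM3, an established human hepatocellular carcinoma cell line, in 3 libraries of cells carrying an empty vector (Empty, called NC in the sample labels) and 3 libraries of cells transfected with a vector for the long non-coding RNA LINC00862. The labels give the same cell line for both groups, no time after transfection is given, and neither the promoter of the vector nor separate cultures behind the 3 libraries of a group are stated in the sources used here, so p-values measure the spread between these libraries, which may be technical. Each library held the count of reads per gene and the FPKM, a level scaled by the length of the transcript and the depth of the library.

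APOBEC3 proteins restrict retroviruses and endogenous retroelements, and the deamination of genomic DNA by some of them, above all APOBEC3A and APOBEC3B, leaves C-to-T and C-to-G mutations in many cancers. APOBEC3B is mainly nuclear and is the member most often raised in tumours, including liver cancer. APOBEC3G, APOBEC3F, APOBEC3D and APOBEC3H are best known for blocking HIV lacking Vif, and APOBEC3C is a weaker and widely expressed member. APOBEC1 is an RNA editor of the small intestine. With the cofactors A1CF or RBM47 it edits the transcript of apolipoprotein B, and the human liver lacks this editing.

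The total counts lay between 58241123 and 68229070, and 20741 genes passed the filter on low counts of edgeR. LINC00862 was counted 11, 21 and 6 times in Empty and 145, 121 and 76 times in LINC00862, a log2 fold change of 3.22 (standard error 0.53, adjusted p = 0.000583 by edgeR; all adjusted p-values of fold changes are from its quasi-likelihood test over all tested genes). The 2 groups differed broadly, since 64.2% of the tested genes passed an adjusted p of 0.05, 34.4% higher and 29.8% lower in LINC00862, with a median log2 fold change of 0.11. Markers of hepatocytes and hepatoma moved with the groups. Of 9 such markers 7 were tested, 5 were higher and 2 were lower in LINC00862, and their summed FPKM was 3.05 to 3.60 in Empty against 538 to 618 in LINC00862, most of it fibrinogen beta (FGB). Albumin (ALB), a defining hepatocyte marker, was at 0 FPKM in 2 of the 3 Empty libraries and averaged 1.51 FPKM in LINC00862, while alpha-fetoprotein (AFP) averaged 0.104 FPKM in Empty and was at 0 in LINC00862. ALB, TTR and HNF4A passed the filter on low counts only through the LINC00862 libraries, and AFP only through the Empty libraries. FGB averaged 1.75 FPKM in Empty and 550 FPKM in LINC00862, and transferrin (TF) 0.0369 and 15.5 FPKM. SERPINA1, the other lower marker, averaged 1.29 FPKM in Empty and 0.095 FPKM in LINC00862. Its log2 fold change was -3.55 (adjusted p = 3.2e-05 by edgeR), so the markers did not share one direction. The untested markers were rare in both groups. APOA1 averaged 0.0628 FPKM in Empty and 0.0152 FPKM in LINC00862, and APOA2 0 and 0.0145 FPKM. Whether both groups came from the same stock of cells was not tested, so a difference between them cannot be told apart from a difference between stocks. Since several APOBEC3 genes are strongly expressed by lymphoid and myeloid cells, 12 blood cell markers were examined too. Of these, 11 did not pass the threshold and 1, the monocyte gene CD14, was higher in LINC00862. Their summed FPKM was 3.90 to 4.48 in Empty and 7.34 to 9.56 in LINC00862. Without CD14 the other 11 summed to 2.24 to 2.97 FPKM in Empty and 2.07 to 3.13 FPKM in LINC00862, and none of the 12 was at 0 in every library. The part of these markers in the differences below was not tested, and in bulk samples fewer cells of a type and less RNA per cell cannot be told apart.

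The 7 APOBEC3 genes lie side by side within 151 kb of chromosome 22 (chr22:38952741-39104067, plus strand, in the hg38 coordinates of the deposited table), in the order A, B, C, D, F, G and H. APOBEC1 lies alone on chromosome 12 (chr12:7649400-7665908, minus strand). Each catalytic domain carries a zinc-binding motif with a histidine, a glutamate and a pair of cysteines. In the transcripts of GENCODE 29 (GRCh38) this motif was found 1 time in APOBEC3A, APOBEC3C, APOBEC3H and APOBEC1 and 2 times in APOBEC3B, APOBEC3D, APOBEC3F and APOBEC3G, whose reading frames were 199, 190, 182 and 236 codons long in the former and 382, 386, 373 and 384 codons in the latter. The last motif of 5 members is printed because its likeness bears on how surely reads can be assigned to one gene. It runs from the histidine codon to the last cysteine codon, 5′ to 3′ on the sense strand, with the codons of the histidine, the glutamate and the cysteines in capitals.
APOBEC3A: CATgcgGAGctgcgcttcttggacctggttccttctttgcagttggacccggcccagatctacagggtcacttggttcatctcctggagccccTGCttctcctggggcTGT
APOBEC3B: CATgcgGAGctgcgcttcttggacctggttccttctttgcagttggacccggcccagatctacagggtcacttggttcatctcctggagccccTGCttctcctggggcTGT
APOBEC3C: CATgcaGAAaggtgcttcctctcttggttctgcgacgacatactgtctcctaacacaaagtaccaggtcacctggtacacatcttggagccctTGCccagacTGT
APOBEC3F: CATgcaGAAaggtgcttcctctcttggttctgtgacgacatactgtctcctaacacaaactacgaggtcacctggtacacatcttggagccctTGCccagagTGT
APOBEC3H: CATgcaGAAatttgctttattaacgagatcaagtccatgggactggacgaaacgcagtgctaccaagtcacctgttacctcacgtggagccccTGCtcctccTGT

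Over these 111 bases APOBEC3A and APOBEC3B were identical. APOBEC3F was identical over 105 bases to APOBEC3D, and 101 of the 105 bases (96.2%) were shared between APOBEC3C and each of them. APOBEC3G and APOBEC3H stood further off, with 57.1% and 55.2% of the bases shared with APOBEC3C and 61.9% with each other. Over whole transcripts, at the read length of 150 bases, 5.35% of the windows of APOBEC3B were also present in the APOBEC3A transcript that the deposited row names, and 21.0% when the longer GENCODE transcript of APOBEC3A that runs into APOBEC3B was counted too. With the latter, 24.6% were present in any other member. The share present in any other member was 5.57% for APOBEC3A, 5.17% for APOBEC3D, 6.64% for APOBEC3F and 5.70% for APOBEC3G. No 150-base window of APOBEC3C, APOBEC3H or APOBEC1 was present in another member, and at 50 bases APOBEC3C shared 1.16% of its windows. Counts of APOBEC3C were therefore the least open to reads shared with another member among the abundant genes, whereas those of APOBEC3A and APOBEC3B are uncertain against each other. The deposited row of APOBEC3A (chr22:38952741-38992778) spans nearly all of APOBEC3B (chr22:38982347-38992779) and overlaps it by 10432 bases on the same strand.

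Most of the measured members had lower expression in LINC00862 than in Empty, and APOBEC3C fell furthest, to 1.49% of its fitted Empty level. Of the 8 members, 6 passed the filter on low counts. Of these 6, 5 were down-regulated, 0 were up-regulated and 1, APOBEC3D, did not pass the threshold, where 29.8% of all tested genes were down-regulated. The FPKM of 6 of the 8 members did not overlap between the groups, as in 71.1% of the tested genes. It was lower in LINC00862 for 5 of them, the case in 36.6% of the tested genes, and higher for APOBEC3H, the case in 34.4%. APOBEC3A passed the filter only through the Empty libraries, in which it was higher. The 2 members left out by the filter were APOBEC3H and APOBEC1, both with few counts.

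**Figure D1:**
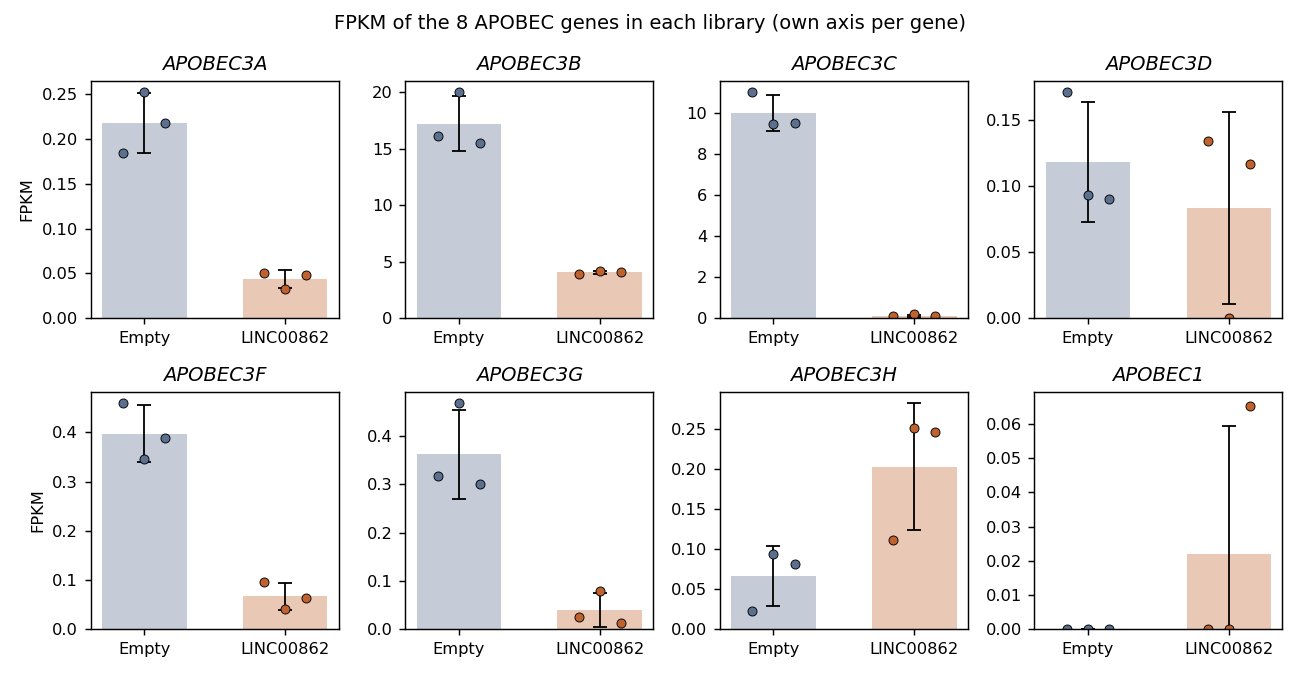
FPKM of each of the 8 genes (vertical axis, a separate linear scale from 0 for each gene) in the 3 Empty and 3 LINC00862 libraries; points are libraries, bars are means and error bars are SD. APOBEC3A, APOBEC3B, APOBEC3C, APOBEC3F and APOBEC3G were lower in all 3 LINC00862 libraries, APOBEC3H was higher in all 3, and APOBEC3D and APOBEC1 overlapped between the groups.

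APOBEC3B (ENSG00000179750), the nuclear deaminase with a double domain, was the most abundant member in both groups. Its FPKM was 16.2, 19.99 and 15.5 in Empty and 3.94, 4.20 and 4.09 in LINC00862, from counts of 2029, 2476 and 1968 against 572, 527 and 520. The lowest Empty library lay well above the highest LINC00862 library. Mean FPKM was 17.2 ± 2.41 (SD, n = 3) in Empty against 4.08 ± 0.130 (SD, n = 3) in LINC00862. The fitted level was 3.75-fold lower in LINC00862, a log2 fold change of -1.91 (standard error 0.17, adjusted p = 1.54e-05 by edgeR). As the exact permutation test of FPKM cannot give a two-sided p below 0.1 with 3 libraries against 3, p = 0.1 was the result for this and each other gene without overlap.

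APOBEC3A (ENSG00000128383), the single-domain deaminase with the strongest activity on DNA, was counted 29, 39 and 35 times in Empty and 10, 6 and 8 times in LINC00862. These counts did not overlap, but they were between 1.14% and 1.78% of the counts of APOBEC3B in every library. The mean FPKM was 0.218 ± 0.0340 (SD, n = 3) in Empty against 0.0440 ± 0.00981 (SD, n = 3) in LINC00862. By edgeR this was a log2 fold change of -2.004 (standard error 0.52, adjusted p = 0.00794). The ratio to APOBEC3B averaged 1.59% ± 0.175 (SD, n = 3) in Empty against 1.48% ± 0.310 (SD, n = 3) in LINC00862, and these values overlapped (exact two-sided permutation p = 0.6, adjusted p = 0.6 over 6 members). GENCODE 29 holds a transcript assigned to APOBEC3A that ends at base 38992778, within a base of the end of APOBEC3B, although the deposited row names another transcript. How many of these few reads came from APOBEC3B was not tested. An antisense gene, APOBEC3B-AS1, overlaps both genes on the other strand and was counted 2, 0 and 0 times in Empty and 0 times in each LINC00862 library.

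APOBEC3C (ENSG00000244509), a single-domain gene at chr22:39014257-39020352, showed the largest change of the members tested. Its FPKM was 11.03, 9.51 and 9.53 in Empty and 0.109, 0.185 and 0.0980 in LINC00862. Its counts were 1931, 1642 and 1683 against 22, 33 and 18. The gene thus stood near APOBEC3B in Empty and close to the rare members in LINC00862, with no overlap. The fitted level was 66.9-fold lower in LINC00862, a log2 fold change of -6.06 (standard error 0.26, adjusted p = 2e-07 by edgeR), and 1.85% of the tested genes had a log2 fold change as low or lower. For comparison, this share was 6.04% for APOBEC3G, 8.41% for APOBEC3F, 10.8% for APOBEC3A and 11.6% for APOBEC3B. Relative to APOBEC3B in the same library, the counts of APOBEC3C fell from 82.3% ± 14.7 (SD, n = 3) to 4.52% ± 1.52 (SD, n = 3), without overlap (exact two-sided permutation p = 0.1, adjusted p = 0.2 over 6 members).

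The remaining double-domain genes, the antiviral APOBEC3D, APOBEC3F and APOBEC3G, were rare in both groups, below 0.5 FPKM in every library. APOBEC3F (ENSG00000128394, chr22:39040604-39052287) was counted 161, 119 and 136 times in Empty and 38, 14 and 23 times in LINC00862. APOBEC3G (ENSG00000239713, chr22:39077067-39087743) was counted 115, 168 and 110 times against 12, 29 and 5 times. Neither gene overlapped between the groups. On the log2 scale the change was -2.38 for APOBEC3F (standard error 0.41, adjusted p = 0.000838 by edgeR) and -3.01 for APOBEC3G (standard error 0.59, adjusted p = 0.00174 by edgeR). When single libraries were left out, APOBEC3G ran from -3.88 to -2.63. The former was without LINC00862 replicate 2, its highest library of that group, and the latter without LINC00862 replicate 3. Against APOBEC3B, the ratio of APOBEC3F overlapped between the groups (6.55% in Empty and 4.57% in LINC00862, exact two-sided permutation p = 0.2). That of APOBEC3G did not overlap (6.01% and 2.85%, exact two-sided permutation p = 0.1), though its highest LINC00862 library, at 5.50%, lay just under its lowest Empty library, at 5.59%.

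APOBEC3D (ENSG00000243811, chr22:39021113-39033277) was the tested member that did not pass the threshold. It was counted 29, 16 and 16 times in Empty and 26, 0 and 20 times in LINC00862, so a single library at 0 set its mean. The mean FPKM was 0.118 ± 0.0458 (SD, n = 3) in Empty against 0.0835 ± 0.0728 (SD, n = 3) in LINC00862. By edgeR this was a log2 fold change of -0.30 (standard error 0.98, adjusted p = 0.803), against 0.28 without LINC00862 replicate 2. A difference of APOBEC3D was not detected.

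APOBEC3H (ENSG00000100298, chr22:39097224-39104067), the last gene of the cluster, was the member whose FPKM was higher in LINC00862 without overlap. It was counted 3, 9 and 7 times in Empty and 11, 23 and 22 times in LINC00862. The mean FPKM was 0.0661 ± 0.0379 (SD, n = 3) in Empty against 0.203 ± 0.0797 (SD, n = 3) in LINC00862, a ratio of 3.08. The groups did not touch, but the lowest LINC00862 library, at 0.111 FPKM, was close to the highest Empty library, at 0.0944 FPKM. As 2 libraries and not the 3 needed reached the count filter, the gene was not tested. In a fit of every gene with at least 1 count its log2 fold change was 1.63 with an adjusted p of 0.13 by edgeR, which did not pass the threshold.

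APOBEC1 (ENSG00000111701), the RNA editor, was counted 0 times in each Empty library and 0, 0 and 4 times in the LINC00862 libraries. A count of 0 allows up to 3 counts per library, for counting error only, so the 5 empty libraries and the single one with 4 counts did not show a difference. The gene failed the filter and was not tested.

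Because FPKM is scaled by length, the members can also be ranked within a group. In Empty the order was APOBEC3B, APOBEC3C, APOBEC3F, APOBEC3G, APOBEC3A, APOBEC3D, APOBEC3H and APOBEC1, and among neighbours the ranges of APOBEC3F and APOBEC3G, and of APOBEC3D and APOBEC3H, overlapped. In LINC00862 the order was APOBEC3B, APOBEC3H, APOBEC3C, APOBEC3D, APOBEC3F, APOBEC3A, APOBEC3G and APOBEC1. There APOBEC3B alone stood apart from its neighbour, and all other neighbours overlapped.

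The summed FPKM of the 8 members was 28.3, 30.8 and 26.2 in Empty and 4.47, 4.79 and 4.74 in LINC00862. The mean of the sum was 28.4 ± 2.30 (SD, n = 3) in Empty against 4.67 ± 0.174 (SD, n = 3) in LINC00862, 6.09-fold lower (exact two-sided permutation p = 0.1). APOBEC3B and APOBEC3C together made up 95.9% of the sum in Empty and 90.2% in LINC00862. The share of APOBEC3B was 60.5% ± 4.10 (SD, n = 3) in Empty against 87.4% ± 1.02 (SD, n = 3) in LINC00862, a difference of 26.9 percentage points without overlap (exact two-sided permutation p = 0.1, adjusted p = 0.2667 over the 8 members). The share of APOBEC3C was 35.4% ± 4.10 (SD, n = 3) against 2.79% ± 0.948 (SD, n = 3), and that of APOBEC3H was 0.232% ± 0.131 (SD, n = 3) against 4.32% ± 1.58 (SD, n = 3). For each of them the exact two-sided permutation p was 0.1 (adjusted p = 0.2667 over the 8 members). A share of a falling sum rises for any member that fell less than the sum, and the FPKM ratio of APOBEC3H itself was 3.08.

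**Figure D2:**
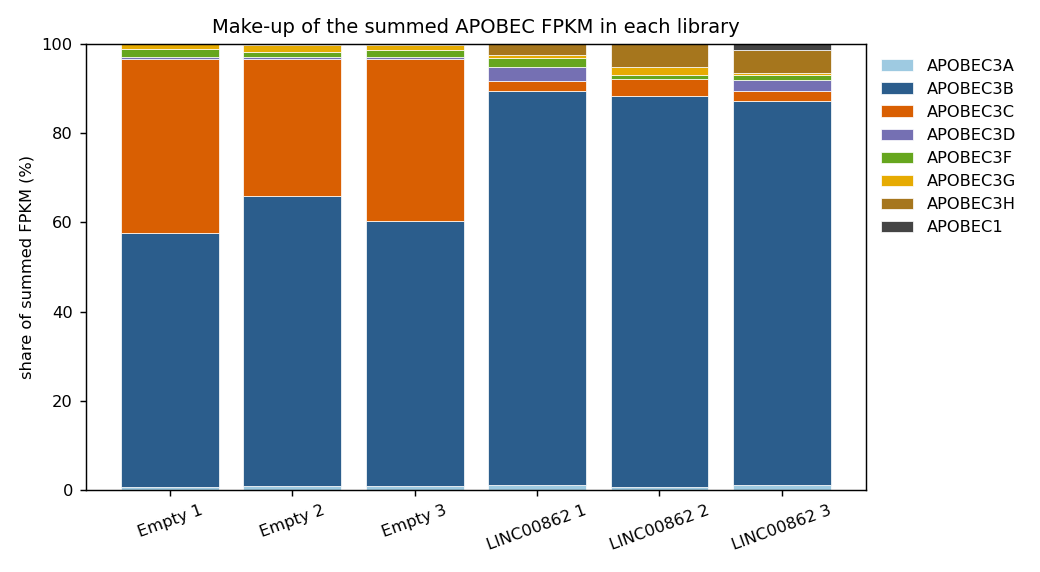
Share of each gene in the summed FPKM of the 8 members (vertical axis, percent), 1 stacked bar for each library. APOBEC3C made up 35.4% of the sum on average in Empty and 2.79% in LINC00862, where APOBEC3B made up 87.4%.

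The genes around the cluster did not share one direction. Of the 3 nearest tested genes before APOBEC3A, DNAL4, a dynein light chain, was higher in LINC00862 with a log2 fold change of 1.01 (adjusted p = 0.000792 by edgeR). NPTXR, a receptor of neuronal pentraxins, was lower by 1.69 on the log2 scale (adjusted p = 0.00122), and CBX6, a Polycomb subunit, fell by 0.49 (adjusted p = 0.029). After APOBEC3H, its neighbours CBX7, another Polycomb subunit, and AL031846 did not pass the threshold, with log2 fold changes of 0.21 and 0.42. PDGFB, a growth factor that lies 119 kb beyond APOBEC3H, had a log2 fold change of -4.85 (adjusted p = 6.68e-07 by edgeR).

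**Figure D3:**
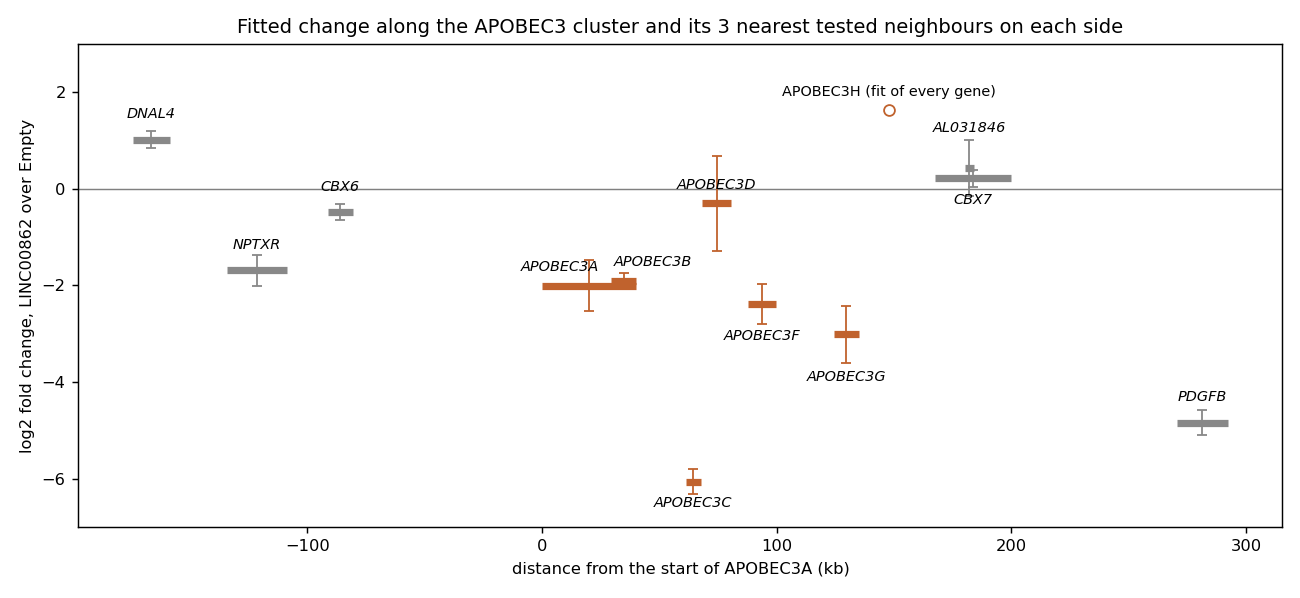
Fitted log2 fold change of LINC00862 over Empty (vertical axis) against distance from the start of APOBEC3A in kb (horizontal axis); thick bars span each gene, error bars are standard errors, members are orange and neighbouring genes grey, and the open circle is APOBEC3H in the fit of every gene, shown without error. APOBEC3C, at -6.06, lay lowest, between APOBEC3B at -1.91 and APOBEC3D at -0.30.

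Although APOBEC1 itself was hardly counted, its cofactors and its target differed. Of 8 genes in this list, 7 were tested, 4 were higher, 3 were lower and 0 missed the threshold, with a median log2 fold change of 2.55 beside 0.11 for all tested genes. This count and those of the lists that follow stand beside 34.4% higher and 29.8% lower among all tested genes. A1CF, the cofactor that binds the apolipoprotein B transcript, was counted 0 times in each Empty library and 488, 386 and 348 times in LINC00862, at least 144-fold higher against a floor of 3 counts per library (adjusted p = 3.59e-06 by edgeR). RBM47, an RNA-binding protein that also serves as a cofactor, was counted 172, 89 and 95 times in Empty and 4849, 4861 and 4157 times in LINC00862, a log2 fold change of 5.40 (adjusted p = 2.8e-07 by edgeR). Neither gene overlapped between the groups. CELF2, an RNA-binding protein that interacts with the editing complex, had a log2 fold change of 2.55. APOB, the edited transcript, had one of 6.26, yet at a level of 0.00178 FPKM in Empty and 0.144 FPKM in LINC00862, and since all its Empty counts came from Empty replicate 1, this value rests on that library (10.2 without it, a fitted value against libraries at 0 and no bound). SYNCRIP, HNRNPAB and KHSRP, RNA-binding proteins that associate with the complex, were lower, with log2 fold changes of -0.997, -1.34 and -0.73. A1CF and APOB passed the filter on low counts only through the LINC00862 libraries, in which they were higher. RBM46 was not analysed here.

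The adenosine deaminases, which edit adenosine to inosine in double-stranded RNA, were examined as the other family of RNA editors. All 3 passed the threshold, as 64.2% of all tested genes did, and all 3 were higher in LINC00862, as 34.4% were, with a median log2 fold change of 2.25. ADAR, the main editor of repeats, had an FPKM of 19.5, 10.8 and 11.8 in Empty and 64.0, 74.1 and 39.3 in LINC00862, with no overlap (log2 fold change 2.25, standard error 0.26, adjusted p = 6.34e-05 by edgeR). ADARB1, the editor of neuronal receptor transcripts, had a log2 fold change of 1.15, and ADARB2, which has no known editing activity, had one of 6.67 from 0, 4 and 0 counts in Empty, which rests on Empty replicate 2 (likewise 10.2 without it). ADARB2, too, passed the filter on low counts only through the LINC00862 libraries. APOBEC2 and APOBEC4 were not analysed here.

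Uracil left in DNA by deaminases is removed by base excision repair. Of 14 genes of this pathway, all tested, 2 were higher, 8 were lower and 4 did not pass the threshold, and the median log2 fold change was -0.52. UNG, the main uracil DNA glycosylase, had a log2 fold change of -0.27 and missed the threshold (adjusted p = 0.118 by edgeR). It was called lower in 4 of the 14 alternatives, scaling by library size alone among them (-0.43, adjusted p = 0.0404). FEN1, the flap endonuclease, had a log2 fold change of -2.49, and APEX2, an abasic endonuclease, had one of -1.89. DUT, which keeps dUTP out of DNA, had one of -1.65. HMCES, which shields abasic sites in single-stranded DNA, had one of -1.37. LIG3, a DNA ligase, was higher with 1.19. PARP1, a sensor of DNA breaks and the other higher gene (0.58, adjusted p = 0.0351 by edgeR), missed the threshold in 10 of the 14 alternatives, and APEX1, the main abasic endonuclease (-0.42, adjusted p = 0.0326 by edgeR), missed it in 8. Among 7 genes of translesion synthesis, which copies past abasic sites, 0 were higher, 3 were lower and 4 did not pass, with a median of -0.45. The 3 were REV3L, the catalytic subunit of polymerase zeta, with -2.23, its partner MAD2L2 with -1.28, and the ubiquitin ligase RAD18 with -1.05.

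The genes listed for pathways that regulate APOBEC3 genes were divided. APOBEC3B is induced through protein kinase C and the non-canonical NF-kappaB pathway. The 10 genes examined cover protein kinase C and NF-kappaB signalling more widely, not the non-canonical pathway alone. Of them, 4 were higher, 2 were lower and 4 did not pass, with a median log2 fold change of 0.49. REL, BIRC3, TNFAIP3 and NFKB2 were the higher ones, with log2 fold changes of 2.63, 1.999, 0.81 and 0.78, and REL was at 3.55 without Empty replicate 1. PRKCA, the protein kinase C alpha gene, and RELA were lower, with -1.63 and -0.74. RELB, the partner of p52 in the non-canonical pathway, had a log2 fold change of 0.53 and missed the threshold (adjusted p = 0.0875 by edgeR), while it passed with upper quartile scaling (0.74, adjusted p = 0.0302).

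APOBEC3B is repressed by the DREAM complex and the E2F6 Polycomb complex, which also hold cell cycle genes silent. Of 14 genes of these complexes and their partners, 2 were higher, 8 were lower and 4 did not pass, with a median of -0.56. MYBL2 and FOXM1, which are cell cycle activators and not repressors, had log2 fold changes of -3.80 and -1.71. TFDP1, the partner of E2F proteins, had one of -2.43, and RBL1, the pocket protein p107, had one of -2.04. The repressor subunits E2F4 and E2F6 were the 2 higher genes, with 0.44 (adjusted p = 0.0264 by edgeR) and 0.38 (adjusted p = 0.044). E2F4 missed the threshold in 10 and E2F6 in 11 of the 14 alternatives, scaling by library size alone among them. Among the 8 lower genes, LIN37 (-0.57, adjusted p = 0.0425 by edgeR) missed it in 9, LIN54 (-0.71, adjusted p = 0.0156) in 4 and L3MBTL2 in 1.

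Several APOBEC3 genes, above all APOBEC3A, APOBEC3F and APOBEC3G, are interferon-inducible. Of 15 genes of the interferon arm, 3 were higher, 5 were lower and 7 did not pass, with a median of -0.16. Within the targets, IFIT3 and IFIT1 were lower, with log2 fold changes of -3.07 and -2.21, and MX1 was higher with 1.59. OAS1, a sensor of double-stranded RNA, was called higher (0.52, adjusted p = 0.0273 by edgeR) but missed the threshold in 9 of the 14 alternatives. Of the receptors and transducers, IFNGR2, STAT2 and IFNAR2 were lower, with -1.03, -0.86 and -0.51. IFNAR2 missed the threshold in 4 of the 14 alternatives, upper quartile scaling (-0.30, adjusted p = 0.0987 by edgeR) among them. IRF9, another transducer, was higher (0.95, adjusted p = 0.0131 by edgeR) and missed the threshold in 2 of the 14 alternatives. ISG15, a ubiquitin-like protein induced by interferon, had a log2 fold change of 0.64 and missed the threshold (adjusted p = 0.0613 by edgeR), while it was called higher in 4 of the 14 alternatives, DESeq2 (0.69, adjusted p = 0.0212) and upper quartile scaling (0.85, adjusted p = 0.0254) among them.

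Among all tested genes, those whose log2 CPM (counts scaled to library depth) followed APOBEC3B most closely over the 6 libraries were ITGB3BP, GNL2 and EPS8L2, with a Pearson r of 0.9996, 0.999 and 0.9987. Those closest to APOBEC3C were GAS6-DT, BMP4 and EPHA2, with an r of 0.9999, 0.9997 and 0.9997. These values describe 6 libraries in 2 separate groups, so any gene that was lower in LINC00862 with a small spread reaches a high r, and 14.4% of the tested genes had an r of at least 0.95 with APOBEC3B and 16.6% with APOBEC3C.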

How the data were processed

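The authors deposited counts per gene, without normalization, and FPKM. The submitters' processing notes name hg38, cutadapt 1.9, HISAT2 2.0.4, UMI-tools, StringTie 1.3.4d, DESeq2 and edgeR, without their roles, and whether counting used strand is not given in the sources used here. Counts were tested with edgeR 4.0.16 in R 4.3.3 (filterByExpr with a minimum count of 10, TMM scaling, quasi-likelihood test, Benjamini-Hochberg adjustment over all tested genes, false discovery rate 0.05). Standard errors were derived from the test statistic. FPKM, shares and ratios of single genes were compared by exact permutation tests. Alternatives were DESeq2 1.42.0, 2 other scalings, no count filter, a replicate block, limma 3.58.1 on log2(FPKM + 1) and log2(FPKM + 0.1), a false discovery rate of 0.01 and leaving out each library. The pipeline was tested on simulated counts. Motif windows came from GENCODE 29 transcripts, 1 per gene. For shared windows, that transcript was compared with all protein-coding GENCODE 29 transcripts of each other member. APOBEC3B was also compared with the listed APOBEC3A transcript alone. Named genes were the members, list genes, neighbours, overlapping genes and the 3 most similar to 2 members. The members and lists were chosen with earlier results of these data known. The values of 2 list genes are not reported here.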

Additional observations from a re-analysis of the deposited data

How the results depend on the processing

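Over 14 alternatives, the number of members called lower was 5 except with the replicate block, where it was 4, since APOBEC3A no longer passed (-1.997, adjusted p = 0.0615). The number called higher was 0 in each. APOBEC3H entered only the fit of every gene and those without a single Empty library or without LINC00862 replicate 1. It did not pass in any of these (adjusted p from 0.062 to 0.165 by edgeR). The remaining alternatives left APOBEC3H out, so they could not call it higher. Of 84 alternative values of the tested members, 82 kept their direction and side of the threshold and 1 was APOBEC3D, which ran from -0.76 to 0.28 when single libraries were left out and was positive only without LINC00862 replicate 2. Same-numbered libraries did not deviate together (correlations -0.049, -0.025 and -0.0074). With 3 libraries in each group this cannot decide whether a number marks a shared culture or day, which the labels do not state. The difference in the share of APOBEC3B was 25.2 to 29.2 percentage points when single libraries were left out, and 32.6 points on summed counts, which are not scaled by length. On log2(FPKM + 1), which compresses rare genes, APOBEC3A was at -0.22 and APOBEC3C at -3.28, both still called lower. Calls among the list genes ranged from 24 to 35 lower (main 29) and from 13 to 26 higher (main 18). Several uncalled list genes changed sign. With upper quartile scaling the log2 fold change was 0.087 for POLB, 0.13 for POLK, 0.091 for IRF1, 0.043 for IRF3 and 0.080 for IRF7, and for TRAF1 it was -0.013 with library size scaling, -0.014 with log2(FPKM + 1) and -0.030 with log2(FPKM + 0.1). When single libraries were left out, the values ran from -0.24 to 0.0070 for POLB, from -0.22 to 0.077 for POLK, from -0.064 to 0.35 for TRAF1, from -0.22 to 0.021 for IRF1 and from -0.34 to 0.047 for IRF3. Over all tested genes the median change was 0.11 by TMM, 0.32 by upper quartile and -0.051 by library size scaling. The cause of these changes was not tested. Low counts limit what can be said of APOBEC3A, APOBEC3D, APOBEC3H and APOBEC1.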
